A study of Rattus with 6 samples.

Results

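The mitochondrial chromosome genes are the 37 genes that the deposited table places on chromosome MT of the mouse build mm10, out of 54012 genes in all. By the gene type given in the table, 13 are protein coding, 2 are mitochondrial rRNA genes and 22 are mitochondrial tRNA genes. RNA was measured in 3 si-CDCP1 libraries (siRNA against CDCP1, genotype label CDCP1 knockdown) and 3 si-NC libraries (control siRNA, genotype label WT). All 6 cultures were labelled as primary vascular smooth muscle cells from aorta and had received Ang II (angiotensin II), a vasoconstrictor hormone, after the siRNA, so every result below was obtained under Ang II, and no culture without it or without siRNA was analysed here. The title names mitochondrial autophagy beside CDCP1, a transmembrane glycoprotein phosphorylated by Src family kinases.

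Mitochondria keep a small circular chromosome of their own. Both of its strands are transcribed from promoters in the control region as long RNAs that run through many genes, and the tRNAs that punctuate the map are cut out by dedicated nucleases, which frees the rRNAs and mRNAs on either side. The rRNAs form the core of the mitochondrial ribosome, the tRNAs feed it, and the mRNAs encode subunits of respiratory complexes I, III and IV and of ATP synthase. Mature mitochondrial mRNAs carry short poly(A) tails, mitochondrial rRNAs very short ones, and mature tRNAs a CCA end and no poly(A) tail. The libraries were made with an mRNA kit, per the labels' protocols. Since mature tRNAs are also far shorter than the usual sequenced fragment, reads placed in a tRNA gene need not come from mature tRNA.

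Values are FPKM, fragments per kilobase of gene and per 1000000 fragments of a divisor that the authors set for each library. Reads were recovered from FPKM and gene length, since 100% of the values above 0 in each library were whole multiples of a single step, within 0.01 of a read. Reads summed over the listed genes numbered 16230958 to 17295710 in si-CDCP1 and 16050517 to 19771638 in si-NC libraries. These sums were 99.9%, 99.9% and 104% of the divisor in si-CDCP1 replicates 1, 2 and 3, against 98.4% in each si-NC library. The divisor of si-CDCP1 replicate 3 was thus smaller than its own listed reads, which raises every FPKM of that library relative to the others, and FPKM in si-CDCP1 is slightly raised throughout relative to a share of listed reads. How the divisor was made is not stated, and a rescaling to equal FPKM sums is given where it turns a result. Cdcp1, the siRNA target, held 0, 5 and 0 reads in si-CDCP1 replicates 1, 2 and 3 and 2, 2 and 1 reads in si-NC replicates 1, 2 and 3, too few to check the knockdown labels. Of 8 smooth muscle markers 6 averaged under 1 FPKM, among them Myh11, Tagln and Cnn1, while Acta2 averaged 46.8 FPKM in si-CDCP1 and 37.4 FPKM in si-NC; all 5 endothelial and all 4 epithelial markers averaged under 1 FPKM. Summed levels of 5 fibroblast markers lay between 10.7 and 11.1 FPKM in si-CDCP1 and between 11.5 and 12.6 FPKM in si-NC, mostly Pdgfra, with Lum at or near 0, and those of 5 macrophage markers between 12.8 and 14.3 FPKM in si-CDCP1 and between 12.3 and 14.5 FPKM in si-NC, mostly Cd14, with Adgre1 at 0. The fibroblast markers' part in the results below was not tested. The organism label is rat whereas the table lists mouse genes, and whether rat reads were placed on the mouse build was not tested. The library of si-CDCP1 replicate 3 stood apart from the others, and results are therefore also given without it. Between the recovered reads of 2 libraries, chi-square per degree of freedom was 13.6 to 20.9 for pairs with it. For the other pairs it was 2.98 to 6.45. It also held the highest FPKM of the 6 libraries for 34.0% of the 12080 genes that averaged 1 FPKM or more, a share that its smaller divisor raises.

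The 37 genes together took a near-constant share of the reads. They held 1.97%, 2.002% and 2.08% of all reads in si-CDCP1 replicates 1, 2 and 3, against 2.01%, 1.96% and 2.01% in si-NC replicates 1, 2 and 3. The groups overlapped, with means of 2.02% ± 0.0566 in si-CDCP1 and 1.99% ± 0.0317 in si-NC (SD, n = 3 each), and p was 0.6 by exact permutation (two-sided; its smallest possible value with 3 libraries a group is 0.1). Without si-CDCP1 replicate 3 the difference of means, 0.0269 percentage points with it, was -0.00472. In bulk RNA, fewer mitochondria per cell, less mitochondrial RNA per mitochondrion and fewer cells of a type cannot be told apart.

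**Figure D1:**
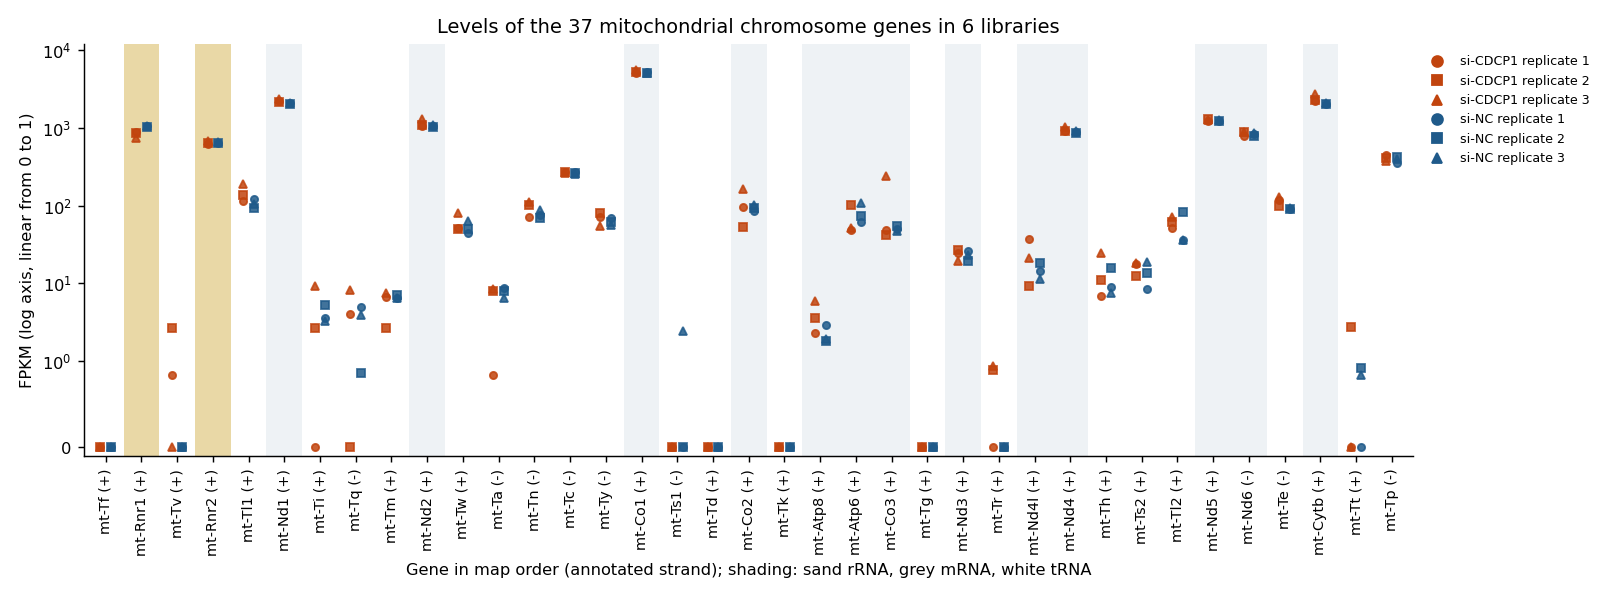
FPKM of each of the 37 mitochondrial chromosome genes (log axis that is linear from 0 to 1) in map order, with the strand given in the table, for the 3 si-CDCP1 libraries (orange, left of each pair) and the 3 si-NC libraries (blue, right). Levels span from 0 in all 6 libraries for 4 tRNA genes to a mean of 5218 FPKM over the 6 libraries for mt-Co1.

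Within this share the gene types were far from equal. Protein-coding genes held between 89.1% and 91.3% of the mitochondrial reads over the 6 libraries, the rRNA genes between 8.24% and 10.5% and the tRNA genes between 0.379% and 0.427%. The mt-Co1 gene alone, which encodes the catalytic subunit of cytochrome c oxidase, held 40.3% of all mitochondrial reads. Of the 37 genes, 27 had reads in every library and 29 averaged 1 FPKM or more across libraries and were tested (13 of 13 protein-coding genes, 2 of 2 rRNA genes and 14 of 22 tRNA genes).

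The rRNA genes lie next to each other near the start of the map, on the plus strand. The gene mt-Rnr1 (ENSMUSG00000064337, MT 70 to 1024, 955 bases) encodes the rRNA of the small mitochondrial ribosomal subunit, and mt-Rnr2 (ENSMUSG00000064339, MT 1094 to 2675, 1582 bases) that of the large subunit. The tRNA gene mt-Tv lies between them with no gap on either side.

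In mt-Rnr1 the level was 887, 850 and 735 FPKM in si-CDCP1 replicates 1, 2 and 3 (14664, 13231 and 10953 reads), against 1063, 1041 and 1043 FPKM in si-NC replicates 1, 2 and 3 (20401, 16208 and 17815 reads). Every si-CDCP1 library lay below every si-NC library, and the lowest value was that of si-CDCP1 replicate 3. The means were 824 ± 79.2 FPKM in si-CDCP1 and 1049 ± 12.3 FPKM in si-NC (SD, n = 3 each). On the log2(FPKM + 1) scale the difference was -0.35 (SE 0.076). This did not pass the threshold over all genes, with an unadjusted p of 0.0023 and a Benjamini-Hochberg (BH) adjusted p of 0.267 in limma's moderated test. It was the smallest p among the 29 mitochondrial chromosome genes tested.

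For mt-Rnr2 the level was 623, 647 and 685 FPKM in si-CDCP1 replicates 1, 2 and 3 (17071, 16682 and 16910 reads), against 632, 648 and 652 FPKM in si-NC replicates 1, 2 and 3 (20074, 16703 and 18445 reads). The groups overlapped, with means of 652 ± 31.1 FPKM in si-CDCP1 and 644 ± 10.7 FPKM in si-NC (SD, n = 3 each). The log2 difference was 0.02 (SE 0.053, BH-adjusted p = 0.898 in limma), and it was -0.04 when the libraries were rescaled to equal FPKM sums. Per length, mt-Rnr1 was thus the higher of the pair in every library.

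The ratio of mt-Rnr2 to mt-Rnr1, which does not depend on how the libraries were scaled, was 0.703, 0.761 and 0.932 in si-CDCP1 replicates 1, 2 and 3, against 0.594, 0.622 and 0.625 in si-NC replicates 1, 2 and 3. The groups did not overlap, with means of 0.799 ± 0.119 in si-CDCP1 and 0.614 ± 0.0171 in si-NC (SD, n = 3 each). The exact two-sided permutation test gave p = 0.1, the smallest p that 3 against 3 libraries can give, and 0.167 after BH adjustment over the 5 shares and ratios compared. Without si-CDCP1 replicate 3 the mean of the remaining si-CDCP1 libraries was 0.732, still above all 3 si-NC libraries.

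The rRNA share of the mitochondrial reads was 9.30%, 9.18% and 8.24% in si-CDCP1 replicates 1, 2 and 3, against 10.2%, 10.5% and 10.2% in si-NC replicates 1, 2 and 3. The means were 8.91% ± 0.578 in si-CDCP1 and 10.3% ± 0.155 in si-NC (SD, n = 3 each), with the same exact permutation p of 0.1 (BH-adjusted 0.167). The mt-Rnr1 level, the ratio and this share all rest on the same mt-Rnr1 reads and are not independent results. The exact Clopper-Pearson 95% intervals, which cover counting error only, reached at most 0.108 percentage points to either side. The mt-Rnr1 gene held 4.30%, 4.06% and 3.24% of the mitochondrial reads in si-CDCP1 replicates 1, 2 and 3, against 5.14%, 5.16% and 5.02% in si-NC replicates 1, 2 and 3. For mt-Rnr2 these shares were 5.00%, 5.12% and 5.00% in si-CDCP1 replicates 1, 2 and 3, against 5.06%, 5.32% and 5.20% in si-NC replicates 1, 2 and 3.

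**Figure D2:**
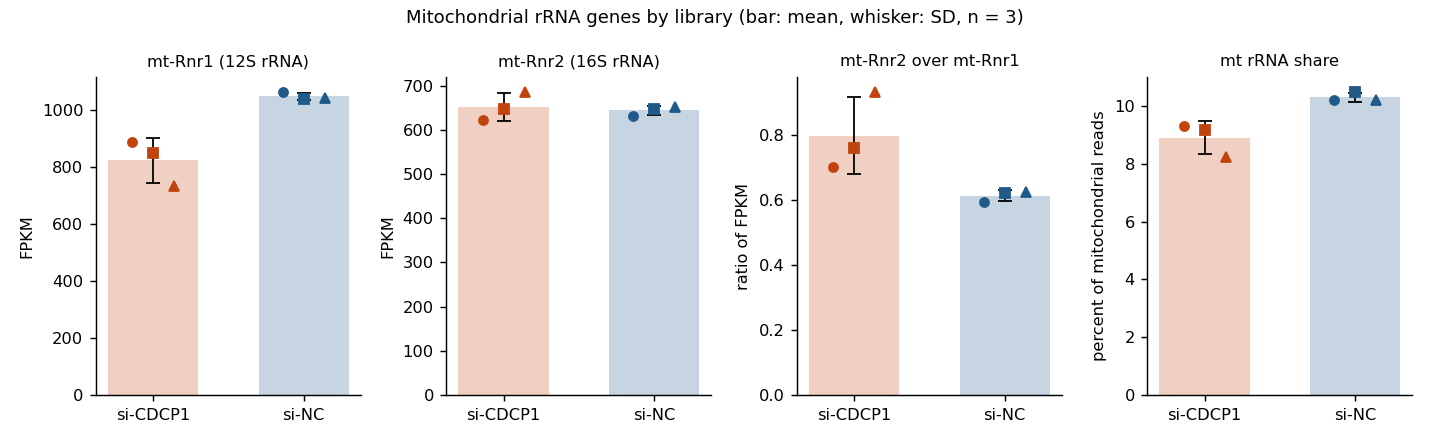
The mt-Rnr1 and mt-Rnr2 levels in FPKM, the ratio of mt-Rnr2 to mt-Rnr1 FPKM and the rRNA share of mitochondrial reads in percent, for si-CDCP1 (orange, left) and si-NC (blue, right). Bars are means, whiskers SD (n = 3) and points single libraries (circle, square and triangle for replicates 1, 2 and 3). All 3 si-CDCP1 libraries lie below the si-NC libraries in mt-Rnr1 and in the rRNA share and above them in the ratio, and si-CDCP1 replicate 3 is the farthest in each. The ratio and the share both contain the mt-Rnr1 reads, so these panels are not independent.

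The call for mt-Rnr1 differed between settings. Without si-CDCP1 replicate 3 the log2 difference was -0.27 (SE 0.036), and it did not pass (BH-adjusted p = 0.0718 in limma). With library weights on all 6 libraries it was -0.30 and mt-Rnr1 passed as lower (adjusted p = 0.0186). In limma voom on the recovered reads it did not pass with all 6 libraries (adjusted p = 0.166) and passed without si-CDCP1 replicate 3, a setting chosen after the data were seen (adjusted p = 0.00013). In the fits where it passed, 2.54% and 1.06% of all tested genes were called lower in si-CDCP1. Over all 19 settings the adjusted p of mt-Rnr1 ranged from 0.00013 to 0.643 and its log2 difference from -0.41 to -0.27.

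RNA classes outside mitochondria that mostly lack poly(A) tails were measured beside the rRNA genes. Nuclear snRNA, snoRNA and scaRNA genes held 74.9, 72.0 and 70.5 reads per 1000000 in si-CDCP1 replicates 1, 2 and 3, against 82.8, 83.2 and 84.3 in si-NC replicates 1, 2 and 3. These groups did not overlap, as was so in the same direction for 10.6% of all single genes tested. The 354 nuclear rRNA genes held 576, 371 and 397 reads per 1000000 in si-CDCP1 replicates 1, 2 and 3, against 393, 487 and 481 in si-NC replicates 1, 2 and 3, and the groups overlapped. The 70 histone genes held between 16.7 and 23.8 reads per 1000000 in si-CDCP1 and between 15.1 and 18.8 in si-NC, with overlap. For the gene Gm26917 the values were 548, 472 and 174 reads per 1000000 in si-CDCP1 replicates 1, 2 and 3. They were 448, 514 and 460 in si-NC replicates 1, 2 and 3, and the groups overlapped. The lowest value was that of si-CDCP1 replicate 3, also the library lowest in mt-Rnr1, whereas the nuclear rRNA genes were lowest in si-CDCP1 replicate 2. Rn7sk held 5 to 14 reads per library, with overlapping groups, and Gm42418, Rmrp and Rpph1 held none. The part of RNA selection in the mt-Rnr1 result was not tested.

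The 22 tRNA genes are between 59 and 75 bases long, 14 on the plus and 8 on the minus strand. Each is named for its amino acid by its letter, and leucine and serine each have a pair. At these lengths 3 reads, the floor that a count of 0 allows, correspond to between 2.31 and 3.26 FPKM in si-CDCP1 libraries and between 1.99 and 3.12 FPKM in si-NC libraries. How reads that overlap a tRNA gene only in part were counted is not given in the sources used here.

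Reads were unevenly spread over the tRNA genes. The genes mt-Tp and mt-Tc together held 53.8% of all tRNA reads over the 6 libraries, and 5 genes (with mt-Tl1, mt-Te and mt-Tn) held 81.3%. The 8 minus-strand genes held 76.2% of the tRNA reads and the 14 plus-strand genes 23.8%. Without a known strand setting, reads of a minus-strand tRNA gene and antisense reads of the plus-strand precursor cannot be told apart.

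The proline tRNA gene mt-Tp (MT 15356 to 15422, minus strand) is the last gene of the map, next to the control region. It held 514, 450 and 391 reads in si-CDCP1 replicates 1, 2 and 3, against 469, 461 and 479 in si-NC replicates 1, 2 and 3. At 410 ± 34.6 FPKM in si-CDCP1 and 390 ± 37.7 FPKM in si-NC (SD, n = 3 each) it was the highest tRNA gene per length, and the groups overlapped. Its immediate neighbour mt-Tt, the threonine tRNA gene on the opposite strand, held 3 reads in si-CDCP1 and 2 in si-NC over all 3 libraries of each group.

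Between mt-Nd2 and mt-Co1 lie 5 tRNA genes for tryptophan, alanine, asparagine, cysteine and tyrosine, all but mt-Tw on the minus strand. A gap of 32 bases between mt-Tn and mt-Tc is the known site of the light-strand replication origin. Of these, mt-Tc held 305, 289 and 269 reads in si-CDCP1 replicates 1, 2 and 3, against 360, 279 and 301 in si-NC replicates 1, 2 and 3. At 266 ± 3.90 FPKM in si-CDCP1 and 262 ± 8.55 FPKM in si-NC (SD, n = 3 each), mt-Tc varied least of all tRNA genes with reads, with a coefficient of variation of 2.38% over the 6 libraries. Counts of this size carry counting error of their own, so the small spread need not mean a steadier level.

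On one side of that gap, mt-Tn held 88, 118 and 122 reads in si-CDCP1 replicates 1, 2 and 3, against 108, 81 and 111 in si-NC replicates 1, 2 and 3. On the other side of mt-Tc, mt-Ty held 84, 87 and 57 reads in si-CDCP1 replicates 1, 2 and 3, against 92, 68 and 67 in si-NC replicates 1, 2 and 3. The groups overlapped in both genes. The tryptophan gene mt-Tw held 60, 54 and 85 reads in si-CDCP1 replicates 1, 2 and 3, against 59, 55 and 76 in si-NC replicates 1, 2 and 3, again overlapping. The alanine gene mt-Ta was near the floor, with 1, 9 and 9 reads in si-CDCP1 replicates 1, 2 and 3, against 12, 9 and 8 in si-NC replicates 1, 2 and 3.

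The glutamate tRNA gene mt-Te (MT 14071 to 14139, minus strand) sits between mt-Nd6 and mt-Cytb and was the single tRNA gene whose groups did not overlap. It stood at 116, 98.7 and 130.02 FPKM in si-CDCP1 replicates 1, 2 and 3 (139, 111 and 140 reads), against 91.6, 91.5 and 92.4 FPKM in si-NC replicates 1, 2 and 3 (127, 103 and 114 reads). All 3 si-CDCP1 libraries were higher in FPKM, although the read counts themselves overlapped. The log2 difference was 0.31 (SE 0.095), with an unadjusted p of 0.0131 and a BH-adjusted p of 0.289 in limma, and 0.22 without si-CDCP1 replicate 3. In limma voom on the recovered reads of all 6 libraries the SE was larger, 0.148 (BH-adjusted p = 0.35). There mt-Tl1, and not mt-Te, was the 1 tRNA gene of 10 with an unadjusted p under 0.05.

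The leucine tRNA gene mt-Tl1 (MT 2676 to 2750, plus strand) joins mt-Rnr2 and mt-Nd1 without a gap and is known as the binding site of the transcription terminator MTERF1. It stood at 116, 135 and 187 FPKM in si-CDCP1 replicates 1, 2 and 3 (151, 165 and 219 reads), against 120, 93.2 and 104 FPKM in si-NC replicates 1, 2 and 3 (181, 114 and 139 reads). The groups overlapped in 1 library, si-NC replicate 1, and the highest value was that of si-CDCP1 replicate 3. The log2 difference was 0.44 (SE 0.18, BH-adjusted p = 0.339 in limma), and 0.25 without si-CDCP1 replicate 3.

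Between mt-Nd4 and mt-Nd5 lie the plus-strand tRNA genes for histidine, serine and leucine. The gene mt-Tl2 held 63, 72 and 80 reads in si-CDCP1 replicates 1, 2 and 3, against 51, 95 and 46 in si-NC replicates 1, 2 and 3. The serine gene mt-Ts2 held 18, 12 and 17 reads in si-CDCP1 replicates 1, 2 and 3, against 10, 13 and 20 in si-NC replicates 1, 2 and 3. The histidine gene mt-Th held 8, 12 and 26 reads in si-CDCP1 replicates 1, 2 and 3, against 12, 17 and 9 in si-NC replicates 1, 2 and 3. In none of these 3 genes were the groups apart.

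The methionine tRNA gene mt-Tm, just before mt-Nd2, held 8, 3 and 8 reads in si-CDCP1 replicates 1, 2 and 3, against 9, 8 and 8 in si-NC replicates 1, 2 and 3. Next to it, mt-Ti held 13 reads in si-CDCP1 and 15 in si-NC, and mt-Tq 14 reads in si-CDCP1 and 13 in si-NC, over the 3 libraries of each group. The table has mt-Ti overlapping mt-Tq by 3 bases on the opposite strand and mt-Nd1 by 2 bases.

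The remaining 8 tRNA genes were at or near 0. The genes mt-Tf, mt-Td, mt-Tk and mt-Tg had no reads in any of the 6 libraries, which allows up to 3 reads in each. For mt-Tv, between the rRNA genes, there were 1, 3 and 0 reads in si-CDCP1 replicates 1, 2 and 3 and no reads in si-NC, although its neighbours mt-Rnr1 and mt-Rnr2 averaged 937 and 648 FPKM over the 6 libraries. Over all libraries mt-Ts1 held 3 reads, mt-Tr 2 and mt-Tt 5. All 5 tRNA genes between mt-Co1 and mt-Nd4 (mt-Ts1, mt-Td, mt-Tk, mt-Tg and mt-Tr) are among these, with 5 reads in all, against 8479 reads in the other 17. They lie beside or within the stretch from mt-Co2 to mt-Nd4l, whose reads could be shared with chromosome 1 pseudogenes (below). Their low counts are therefore uncertain, and whether their reads were placed elsewhere was not tested.

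**Figure D3:**
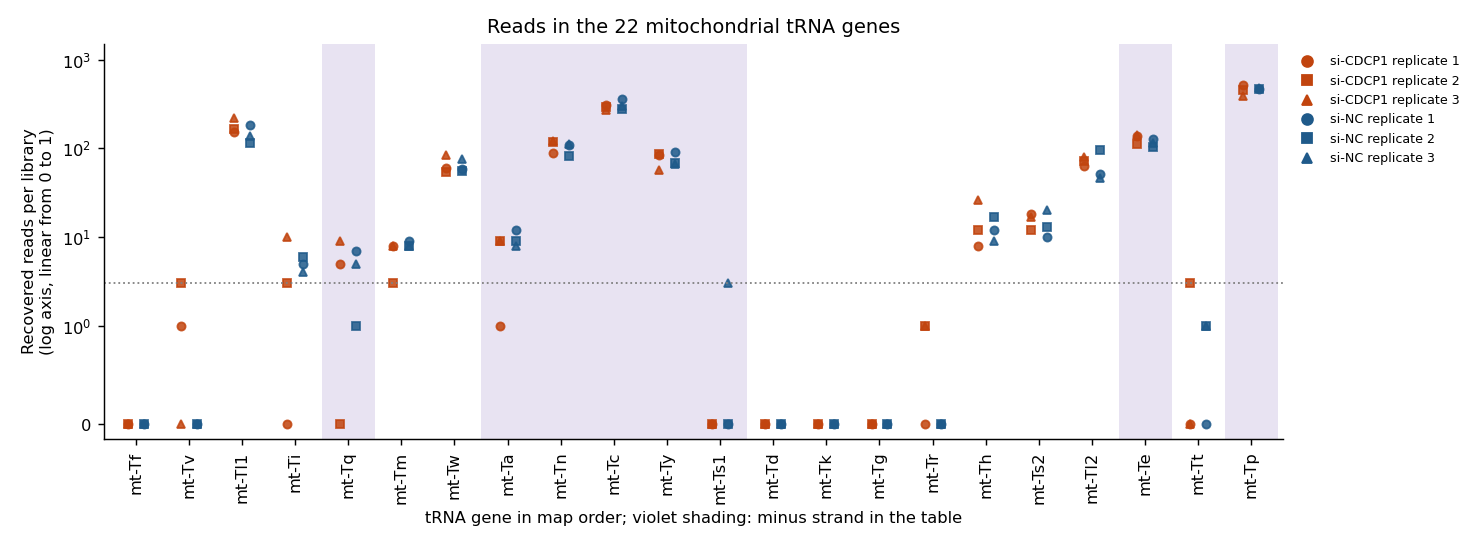
Recovered reads per library (log axis that is linear from 0 to 1) in each of the 22 tRNA genes in map order, for si-CDCP1 (orange, left of each pair) and si-NC (blue, right); violet shading marks minus-strand genes and the dotted line 3 reads. The 5 genes from mt-Ts1 to mt-Tr lie at 0 to 3 reads, while mt-Tp and mt-Tc lie between 269 and 514.

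As a class, tRNA genes took 0.423%, 0.427% and 0.427% of the mitochondrial reads in si-CDCP1 replicates 1, 2 and 3, against 0.379%, 0.418% and 0.392% in si-NC replicates 1, 2 and 3. The groups did not overlap, and the exact two-sided permutation p was 0.1 (BH-adjusted 0.167). Counting error is as large as the gap: the exact 95% interval was 0.402% to 0.446% in si-CDCP1 replicate 1 and 0.395% to 0.441% in si-NC replicate 2. Of the 14 tested tRNA genes 10 had positive and 4 negative log2 differences, with a median of 0.16, beside a median of 0.01 over all 12080 genes. The 4 were mt-Ti, mt-Tq, mt-Tm and mt-Ta, which had the fewest reads of the 14 (27 to 48 over the 6 libraries). Without si-CDCP1 replicate 3 the counts were 8 and 6 and the median 0.08.

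Genes that the table gives on the minus strand, mt-Nd6 and the 8 tRNA genes, are those transcribed from the light-strand promoter. They held 2.38%, 2.63% and 2.41% of the mitochondrial reads in si-CDCP1 replicates 1, 2 and 3, against 2.51%, 2.44% and 2.57% in si-NC replicates 1, 2 and 3. The groups overlapped (exact two-sided permutation p = 0.8, BH-adjusted 0.8). The mt-Nd6 gene, a complex I subunit, stood at 777, 887 and 884 FPKM in si-CDCP1 replicates 1, 2 and 3, against 842, 787 and 863 FPKM in si-NC replicates 1, 2 and 3. The table has mt-Nd6 overlapping mt-Nd5 by 14 bases on the opposite strand. Without a known strand setting, reads of mt-Nd6 and antisense reads of the plus-strand precursor cannot be told apart over its whole length. The share of the minus-strand genes therefore need not measure transcription from the light-strand promoter.

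Of the 13 protein-coding genes, 7 had means over the 6 libraries between 840 and 5218 FPKM, with a median coefficient of variation of 5.80%. In order of level these were mt-Co1, mt-Cytb, mt-Nd1, mt-Nd5, mt-Nd2, mt-Nd4 and mt-Nd6. The mt-Co1 gene stood at 5143, 5163 and 5526 FPKM in si-CDCP1 replicates 1, 2 and 3, against 5298, 5046 and 5132 FPKM in si-NC replicates 1, 2 and 3, and the groups overlapped. The complex I gene mt-Nd5 stood at 1233, 1312 and 1252 FPKM in si-CDCP1 replicates 1, 2 and 3, against 1228, 1236 and 1273 FPKM in si-NC replicates 1, 2 and 3, overlapping as well. On the log2(FPKM + 1) scale the difference of mt-Co1 was 0.03 (SE 0.059) and that of mt-Nd5 0.02 (SE 0.051), and with libraries rescaled to equal FPKM sums they were -0.02 and -0.03.

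The mt-Cytb gene encodes cytochrome b, the mitochondrially encoded subunit of complex III. It stood at 2243, 2305 and 2703 FPKM in si-CDCP1 replicates 1, 2 and 3, against 2034, 2053 and 2118 FPKM in si-NC replicates 1, 2 and 3. The si-CDCP1 libraries were all higher, with si-CDCP1 replicate 3 highest. The log2 difference was 0.22 (SE 0.080), with an unadjusted p of 0.0283 and a BH-adjusted p of 0.32 in limma; without si-CDCP1 replicate 3 it was 0.14, and in voom without that library it passed as higher (adjusted p = 0.00745), where 2.40% of all tested genes were called higher. That was the single setting of 19 in which it passed, and it was chosen after the data were seen. With equal FPKM sums its log2 difference was 0.17. Its share of mitochondrial reads was 13.0%, 13.2% and 14.3% in si-CDCP1 replicates 1, 2 and 3. In si-NC replicates 1, 2 and 3 it was 11.8%, 12.2% and 12.2%, without overlap. Under quantile normalisation its log2 difference was 0.02 (adjusted p = 0.887 in limma). That method sets values by rank, which leaves little room for differences at such high levels, so it cannot decide here.

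The FPKM of the complex I genes mt-Nd1 and mt-Nd4 was also higher in all 3 si-CDCP1 libraries, by less. For mt-Nd1 the level was 2188, 2122 and 2379 FPKM in si-CDCP1 replicates 1, 2 and 3, against 2103, 2009 and 2112 FPKM in si-NC replicates 1, 2 and 3, a log2 difference of 0.10 (SE 0.062). For mt-Nd4 it was 924, 923 and 1030 FPKM in si-CDCP1 replicates 1, 2 and 3, against 875, 868 and 908 FPKM in si-NC replicates 1, 2 and 3, a log2 difference of 0.12 (SE 0.061). The mt-Nd2 gene overlapped, at 1071, 1104 and 1314 FPKM in si-CDCP1 replicates 1, 2 and 3, against 1054, 1023 and 1095 FPKM in si-NC replicates 1, 2 and 3. In mt-Nd1, mt-Nd2 and mt-Nd4 the highest library was si-CDCP1 replicate 3, and without it the log2 differences were 0.05, 0.04 and 0.06. For mt-Nd1 the separation did not hold on other scales: its share of mitochondrial reads was 10.6%, 10.2% and 10.5% in si-CDCP1 replicates 1, 2 and 3, against 10.2%, 9.99% and 10.2% in si-NC replicates 1, 2 and 3, and the groups overlapped. Its log2 difference was 0.05 with equal FPKM sums and -0.03 under quantile normalisation, which says little at such high levels. The share of mt-Nd4 was 6.46%, 6.37% and 6.55% in si-CDCP1 replicates 1, 2 and 3, against 6.10%, 6.21% and 6.31% in si-NC replicates 1, 2 and 3, without overlap, and its log2 difference with equal FPKM sums was 0.06.

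The other 6 protein-coding genes, mt-Co2, mt-Atp8, mt-Atp6, mt-Co3, mt-Nd3 and mt-Nd4l, form a stretch of the map and were far lower. Their means over the 6 libraries lay between 3.08 and 98.6 FPKM, with a median coefficient of variation of 43.3%. Pseudogenes elsewhere in the genome with matching lengths, in runs on the same chromosome, were searched for: 30 pseudogenes formed 9 runs, and a single run, of 5 pseudogenes on chromosome 1 (mm10, 24612407 to 24615565, minus strand), matched 5 different mitochondrial genes, in reversed map order. The criterion of different genes was added after the runs were seen. Reads could be shared between these genes and their partners of matching length, so the values of the stretch are uncertain. Reads summed with the partner were still few, 948 to 2152 per library for mt-Co2 and 903 to 3461 for mt-Co3. The mt-Co1 gene, just before the stretch, held 127125 to 164453. The cause of the low level was not tested. Shares of mitochondrial reads therefore rest on totals in which these 6 genes count little.

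Beside its partner Gm28437, mt-Co3, a cytochrome c oxidase subunit, held 653, 539 and 2977 reads in si-CDCP1 replicates 1, 2 and 3, against 796, 694 and 652 in si-NC replicates 1, 2 and 3. In Gm28437 there were 468, 364 and 484 reads in si-CDCP1 replicates 1, 2 and 3, against 671, 425 and 485 in si-NC replicates 1, 2 and 3. The 2977 reads of si-CDCP1 replicate 3 were thus found in mt-Co3 and not in its partner. The log2 difference of mt-Co3, 0.65 (SE 0.61), was -0.16 without that library.

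For mt-Atp6, an ATP synthase subunit, there were 580, 1129 and 542 reads in si-CDCP1 replicates 1, 2 and 3, against 845, 812 and 1310 in si-NC replicates 1, 2 and 3. Its partner Gm10925 held 995, 368 and 509 reads in si-CDCP1 replicates 1, 2 and 3, against 729, 485 and 543 in si-NC replicates 1, 2 and 3. The partner's part of the summed reads of the pair lay between 24.6% and 63.2% over the 6 libraries, without a split between the groups.

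The cytochrome c oxidase gene mt-Co2 held 1140, 599 and 1726 reads in si-CDCP1 replicates 1, 2 and 3, against 1173, 1024 and 1260 in si-NC replicates 1, 2 and 3. Its partner Gm28661, whose length also matched mt-Atp6, held between 19.8% and 43.8% of the summed reads. The partners of the complex I genes mt-Nd3 and mt-Nd4l, Gm28438 and Gm10222, held between 55.2% and 68.4% and between 40.0% and 66.7% of the summed reads. Among the 6, mt-Nd3 had the smallest coefficient of variation over the 6 libraries, 13.5%.

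**Figure D4:**
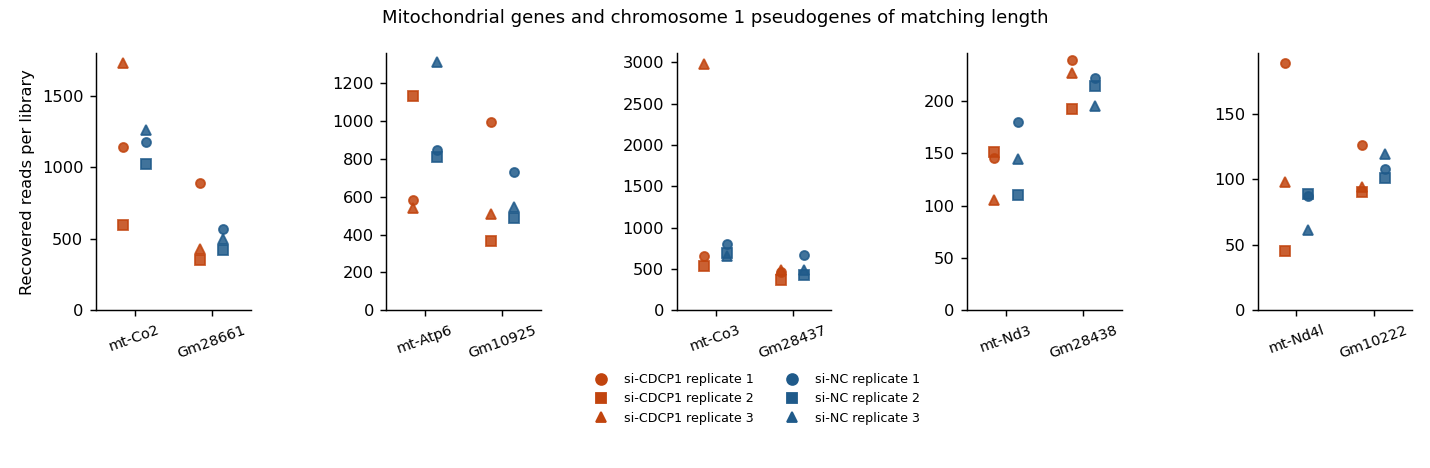
Recovered reads per library in 5 mitochondrial genes and in the chromosome 1 pseudogene of matching length (right in each panel; linear axes from 0), for si-CDCP1 (orange, left of each pair) and si-NC (blue, right). The mt-Co3 value of si-CDCP1 replicate 3, 2977 reads, lies above the other libraries, which hold 539 to 796, while its partner Gm28437 holds 364 to 671 in all 6.

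The ATP synthase gene mt-Atp8 lies in the same stretch without a partner in that run. It overlaps mt-Atp6 by 43 bases and held 8, 12 and 19 reads in si-CDCP1 replicates 1, 2 and 3, against 12, 6 and 7 in si-NC replicates 1, 2 and 3. Its log2 difference of 0.57 (SE 0.27, BH-adjusted p = 0.383 in limma) was 0.29 without si-CDCP1 replicate 3.

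Over all 29 tested mitochondrial chromosome genes, limma called 0 at a BH-adjusted p of 0.05, as it did of all 12080 genes tested (0.00%). At an unadjusted p under 0.05 there were 4 of 29 (mt-Rnr1 lower, mt-Te, mt-Cytb and mt-Tl1 higher), or 13.8%, beside 14.3% of all genes tested (8.94% higher and 5.31% lower). Voom on the recovered reads of all 6 libraries called 0 of 25, beside 0.00% of all genes called higher and 0.0348% called lower. On the deposited FPKM scale the groups did not overlap in 5 of 29: mt-Cytb, mt-Nd1, mt-Nd4 and mt-Te were higher in all si-CDCP1 libraries, beside 14.4% of all genes, and mt-Rnr1 lower, beside 10.6%. These shares are near or under the background, so the counts do not set the mitochondrial chromosome apart. The median log2 difference was 0.10 over the 13 protein-coding genes and 0.10 over all 29, beside 0.01 over all genes tested. Of the 29 differences 23 were positive and 6 negative, and with equal FPKM sums 16 and 13, a scaling that gave all genes tested a median of -0.04. The highest library was si-CDCP1 replicate 3 for 17 of these genes, or 58.6%, beside 34.0% of all genes. Both shares are on FPKM, which the smaller divisor raises in that library. Without that library the median over the 29 was 0.03.

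**Figure D5:**
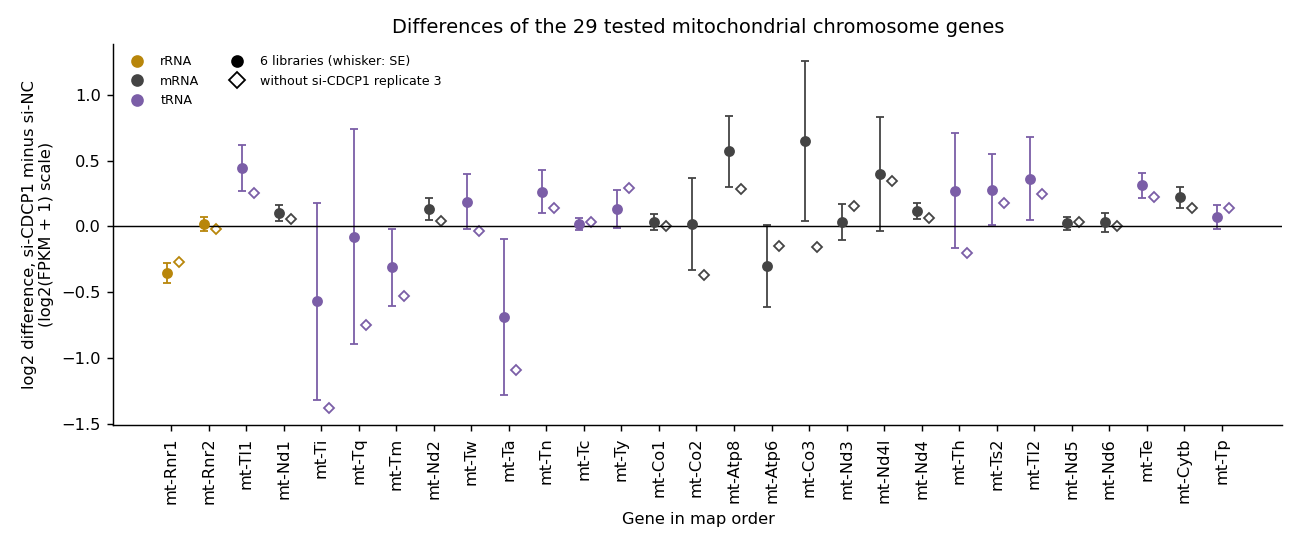
Log2 differences, si-CDCP1 minus si-NC, of the 29 tested genes in map order on the log2(FPKM + 1) scale, with all 6 libraries (filled, whiskers SE) and without si-CDCP1 replicate 3 (open). The mt-Rnr1 difference is -0.35 with and -0.27 without that library, while mt-Co3 changes from 0.65 to -0.16.

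Nuclear genes that make, process and use mitochondrial RNA were read from 4 lists, of which 97 of 98 genes were in the table by name and 93 were tested. Limma called 0 of 93, with 60 positive and 33 negative log2 differences. Their median was 0.04, beside 0.01 over all genes tested. With equal FPKM sums the median over all genes was -0.04, and 0 list genes were called. The signs of the list genes were not read out on that scale. At an unadjusted p under 0.05 there were 13, or 13.98%, beside 14.3% of all genes tested. Of these 13, 11 were higher and 2 lower in si-CDCP1, beside 8.94% higher and 5.31% lower of all genes tested. With library weights 5 were called, all higher (Yrdc, Pus1, Rpusd4, Twnk and Rnaseh1), where 4.62% of all genes were called higher.

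Among 25 genes that modify mitochondrial rRNA and tRNA, Yrdc, Pus1 and Rpusd4 had the smallest p, and 0 were called. The median log2 difference was 0.04, and 0.06 without si-CDCP1 replicate 3. Yrdc, which helps to make the threonylcarbamoyl mark of tRNAs, averaged 27.4 ± 2.15 FPKM in si-CDCP1 and 22.6 ± 0.989 FPKM in si-NC. Its log2 difference was 0.27 (BH-adjusted p = 0.267 in limma), and 0.21 without si-CDCP1 replicate 3. Pus1, a pseudouridine synthase of tRNAs, averaged 29.9 ± 2.38 FPKM in si-CDCP1 and 25.05 ± 0.658 FPKM in si-NC. Rpusd4, which acts on the large-subunit rRNA, averaged 10.4 ± 0.899 FPKM in si-CDCP1 and 8.71 ± 0.428 FPKM in si-NC. Mettl15, a methyltransferase of the small-subunit rRNA that mt-Rnr1 encodes, was chosen after its values were seen and averaged 2.89 ± 0.0877 FPKM in si-CDCP1 and 2.13 ± 0.482 FPKM in si-NC (SD, n = 3 each for all 4 genes). Its log2 difference of 0.32 did not pass (BH-adjusted p = 0.32 in limma).

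Of 24 tested genes of mitochondrial transcription and DNA maintenance 0 were called. The median log2 difference was 0.05, and 0.02 without si-CDCP1 replicate 3, where 25 genes were tested. The replicative helicase gene Twnk averaged 15.8 ± 1.54 FPKM in si-CDCP1 and 13.3 ± 0.253 FPKM in si-NC, and Rnaseh1, which removes RNA from RNA-DNA hybrids, 4.88 ± 0.0884 FPKM in si-CDCP1 and 4.17 ± 0.195 FPKM in si-NC. The DNA polymerase gene Polg averaged 6.38 ± 0.546 FPKM in si-CDCP1 and 7.51 ± 0.399 FPKM in si-NC (SD, n = 3 each). Its log2 difference was -0.21, and -0.15 without si-CDCP1 replicate 3.

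Of 23 tested genes of RNA processing and decay 0 were called, with 17 positive differences and a median of 0.08. Without si-CDCP1 replicate 3 this median was 0.01. Rexo2, which degrades short RNA fragments, averaged 21.4 ± 1.55 FPKM in si-CDCP1 and 19.2 ± 0.0582 FPKM in si-NC. Trnt1, which adds the CCA end to tRNAs, averaged 22.02 ± 2.44 FPKM in si-CDCP1 and 18.9 ± 1.32 FPKM in si-NC. Lrpprc, which stabilises mitochondrial mRNAs, averaged 25.7 ± 2.21 FPKM in si-CDCP1 and 22.9 ± 0.482 FPKM in si-NC (SD, n = 3 each).

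Of 22 genes that charge mitochondrial tRNAs, 0 were called, with 11 positive and 11 negative differences and a median of 0.00. Without si-CDCP1 replicate 3 this median was 0.01. The arginine synthetase gene Rars2 averaged 12.9 ± 1.06 FPKM in si-CDCP1 and 11.3 ± 0.612 FPKM in si-NC. The alanine synthetase gene Aars2 averaged 5.91 ± 0.757 FPKM in si-CDCP1 and 7.12 ± 0.566 FPKM in si-NC. Gatc, a subunit of the enzyme that makes glutaminyl-tRNA, averaged 20.9 ± 2.59 FPKM in si-CDCP1 and 17.8 ± 1.92 FPKM in si-NC (SD, n = 3 each), and the groups overlapped.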

How the data were processed

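RNA-seq was done on 6 libraries. The authors deposited FPKM values for all genes in 1 table with gene lengths, positions and gene types, per the file headers; the build is mm10, per the submitters' processing notes. No source used here gives the aligner, the counter, its handling of reads with several matches or its use of strand. Reads were recovered as whole multiples of the smallest FPKM step times length, with 100% of values above 0 within 0.01 of a whole read. Genes averaging 1 FPKM or more were tested on log2(FPKM + 1) with limma 3.58.1 (R 4.3.3), moderated with an intensity trend, two-sided, BH-adjusted over all genes, threshold 0.05; differences understate low genes. Shares and ratios were compared by exact permutation. On simulated data of 12080 genes the test for this comparison recovered 98% of 2-fold and 86% of 1.5-fold changes, and 5.15% of its calls were false. The simulated libraries had the same small spread for every gene and no outlying library, and the changed genes were not low in reads. This recovery therefore does not carry over to the real libraries or to genes with few reads. No replicate pair was a duplicate (chi-square per degree of freedom of at least 2.98). The labels do not say that replicates were separate isolations, so p-values measure the spread between libraries. Replicate numbers did not pair the libraries.

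The members, lists and tests were chosen with earlier results of these data known. Values in every library were to be given for both rRNA genes, tRNA genes with at least 30 reads and fixed protein-coding genes, and for the 3 genes of each list with the smallest p where none passed. Alternatives were other pseudocounts (0.1 and 0.01 FPKM), filters, scalings, no trend, library weights, a replicate block, limma voom on recovered reads (at least 10 reads in 3 libraries, library sizes equal to the FPKM divisors) and each library left out.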

Additional observations from a re-analysis of the deposited data

How the results depend on the processing

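Of 510 gene-level repeats, 452 kept direction and side of the threshold, 54 turned direction, 3 came to pass and 1 gave a difference of 0 (mt-Co1 under quantile normalisation). The log2 difference of mt-Rnr1 ranged from -0.41 to -0.27. That of mt-Cytb, 0.22 as reported, was 0.17 with equal FPKM sums. It was 0.02 under quantile normalisation, which says little at such high levels. The number of mitochondrial chromosome genes called was 0 in every setting except library weights (1 of 29, mt-Rnr1) and voom without si-CDCP1 replicate 3 (2 of 24, mt-Rnr1 and mt-Cytb), and that of the nuclear lists 0 except library weights (5). In these settings 865 of all 12080 and 493 of all 14267 genes tested were called, so the counts do not set the members apart. Low read counts limit the tRNA genes, and the cause of the changes was not tested. Replicate numbers paired no libraries (correlations of deviations -0.02, 0.03 and 0.02 for numbers 1, 2 and 3); with a replicate block, 0 mitochondrial chromosome genes were called and the adjusted p of mt-Rnr1 was 0.329. For shares the block leaves the difference of means as it is by construction and says nothing about pairing.

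With libraries left out in turn, the difference ranged from -0.00472 to 0.0498 percentage points for the mitochondrial share (negative without si-CDCP1 replicate 3), from -0.110 to 0.0162 for the light-strand share (positive without si-CDCP1 replicate 1, and 0.0152 with summed FPKM), from -1.59 to -1.06 for the rRNA share, from 0.0209 to 0.0404 for the tRNA share and from 0.118 to 0.233 for the rRNA ratio. With libraries scaled to equal FPKM sums, the log2 differences that turned were -0.0223 for mt-Co1, -0.0357 for mt-Co2, -0.0198 for mt-Nd3, -0.0316 for mt-Nd5, -0.0244 for mt-Nd6, -0.0376 for mt-Rnr2 and -0.034 for mt-Tc. With sums over nuclear genes alone, the log2 differences that turned were -0.0213 for mt-Co1, -0.0347 for mt-Co2, -0.0188 for mt-Nd3, -0.0305 for mt-Nd5, -0.0234 for mt-Nd6, -0.0366 for mt-Rnr2 and -0.033 for mt-Tc. Under quantile normalisation, the log2 differences that turned were -0.076 for mt-Co2, -0.0333 for mt-Nd1, -0.00923 for mt-Nd3, -0.0700 for mt-Rnr2, -0.0733 for mt-Tc and -0.0109 for mt-Tp. With library weights, the log2 differences that turned were 0.222 for mt-Atp6, -0.656 for mt-Co2, -0.153 for mt-Co3, -0.349 for mt-Nd4l and -0.0494 for mt-Tw. In voom without si-CDCP1 replicate 3, the log2 differences that turned were -0.00172 for mt-Co1, -0.36 for mt-Co2, -0.155 for mt-Co3, -0.00277 for mt-Nd6, -0.0194 for mt-Rnr2, -0.195 for mt-Th and -0.0277 for mt-Tw. With libraries left out in turn, log2 differences of both signs were found for mt-Co1 (-0.00139 to 0.0516), mt-Co2 (-0.367 to 0.419), mt-Co3 (-0.157 to 1.09), mt-Nd3 (-0.0752 to 0.158), mt-Nd4l (-0.0437 to 0.894), mt-Nd5 (-0.00337 to 0.0418), mt-Nd6 (-0.00834 to 0.0932), mt-Rnr2 (-0.0196 to 0.0484), mt-Ta (-1.09 to 0.0832), mt-Th (-0.201 to 0.655), mt-Ti (-1.38 to 0.302), mt-Tm (-0.534 to 0.0668), mt-Tp (-0.00711 to 0.136), mt-Tq (-0.751 to 0.844), mt-Ts2 (-0.00436 to 0.536) and mt-Tw (-0.0376 to 0.329).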
